A study of Mus musculus with 12 samples.

Results

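The strongest ESRP1 regions were the 1306 stretches of RNA whose highest site score was in the top decile of every one of 3 deposited site lists. They came from 45738 regions in all (2.86%) and from 9649 regions found in all 3 lists (13.5%). Within a list, neighbouring sites on the same strand with a distance of up to 10 nt made up a region, and regions were merged across lists over the same distance. Members were selected on measured values: the highest score of the region had to reach the 90th percentile of all site scores of the list, in every list. The measured scores thus chose the set, so scores, counts and shares below are descriptions with no test, and regions are not replicates. The study mapped RNA contacts of ESRP1 by eCLIP, in which ultraviolet light links a protein to RNA and reverse transcription tends to end at the linked nucleotide. All 12 libraries, inputs included, came from epidermis of Esrp1FLAG/FLAG mice, in which both copies of the gene carry a FLAG tag. Back skin was taken on postnatal day 1, the epidermis was separated with trypsin, and complexes between 75 and 140 kDa were cut from the membrane. For each of 6 biological replicates there was 1 FLAG immunoprecipitate and 1 input without antibody, and each list was called by the authors on 2 replicates together, so the spread between those 2 is not visible. No group without the tag or without ESRP1 was analysed here.

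ESRP1 is an RNA-binding protein of epithelial cells that controls alternative splicing and prefers G-rich RNA with UGG and GGU repeats. It is known for keeping epithelial forms of Fgfr2, Cd44, Ctnnd1 and Enah transcripts, which differ from the forms of mesenchymal cells. In the epidermis it acts in keratinocytes, whose cell layers are held together by desmosomes and by keratin filaments.

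Sequence could be read at 10 strongest regions, those whose peak lay in a RefSeq promoter window of GRCm38.p6 (250 nt before to 50 nt after an annotated start). The following are shown because they are the only members for which letters of the bound RNA could be given, and 7 of the 10 are printed. Each is 30 nt, written 5′ to 3′ on the strand of the sites with T for U, with the site of highest summed score at position 16, and capitals mark every TGG or GGT, overlapping ones included.
Supt6: ggcgacGGTGGTGGTGGTGGTGGcggcggc
Brpf3: ggcgggcggcagcGGTGGTGGcggcGGTGG
Timm23: cccggaaGGTcagcgTGGTgaaGGTGGcag
Hsp90b1: gactcgggatTGGgggGGTGGaggcggctc
Scamp1: ggcgccgggctcgGGTGGGTgacgcgcagt
Pet117: gccTGGcccgttgcggctgcggcggcggcg
Tab3: ggaggaggcaagggggcggcggcagcggcg
The Supt6 stretch, at chr11:78245660-78245689 on the minus strand, is a run of GGT repeats around its peak, and its region scored 329.6, 269 and 234 in lists 1 to 3. Supt6 encodes a histone chaperone that travels with RNA polymerase. The Brpf3 stretch, at chr17:28801128-28801157 on the plus strand, scored 113, 116 and 129.8. The Tab3 stretch, at chrX:85573989-85574018 on the plus strand, holds neither triplet in this window and scored 209.9, 92.3 and 167. Hsp90b1 encodes a chaperone of the endoplasmic reticulum, Timm23 a channel of the mitochondrial inner membrane, and Scamp1 a membrane trafficking protein.

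The motifs searched, on the strand of the sites only, were the triplet TGG, the triplet GGT, and 2 longer runs that hold both, which were GGTGG and, 1 base longer at its start, TGGTGG. TGG stood in 9 of the 10 stretches (90%) and in 109 of 136 stretches (80.1%) of other regions found in all 3 lists, against 44.0% of all 30-nt stretches of the promoter table. GGTGG stood in 6 of 10 (60%) and in 60 of 136 (44.1%), against 4.59% of promoter stretches. The exact 95% binomial interval of the 6 of 10 ran from 26.2 to 87.8%, so these few strongest stretches cannot be told apart from the others. GGT stood in 8 of 10 (80%) and in 79.4% of the 136, and TGGTGG in 2 of 10 (20%) and in 16.2%. Either triplet stood in 9 of 10 (90%) and in 91.9% of the 136. At the peak itself 7 of the 10 had G and 3 had T, against 77.9 and 19.9% of the 136.

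Scores are the authors' values and were used only within a list. The 90th percentile was 66.9 in list 1, 54.0 in list 2 and 71.6 in list 3. The highest scores of the strongest regions ran from 66.9 to 708 in list 1 (median 141), from 54.1 to 532 in list 2 (median 97.4) and from 71.7 to 540.0 in list 3 (median 119.8). The other regions found in all 3 lists had medians of 35.6, 23.9 and 36.0. A strongest region was closest to its threshold in list 3 in 622 cases, in list 2 in 515 and in list 1 in 169, so list 1 seldom decided membership. In 290 regions (22.2%) every list was at least 2 times its threshold, and in 5 regions every list was at least 5 times. To order regions over the lists, the percentile of the score among all sites was taken in each list and averaged, and this mean rank need not follow the score of any 1 list.

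**Figure D1:**
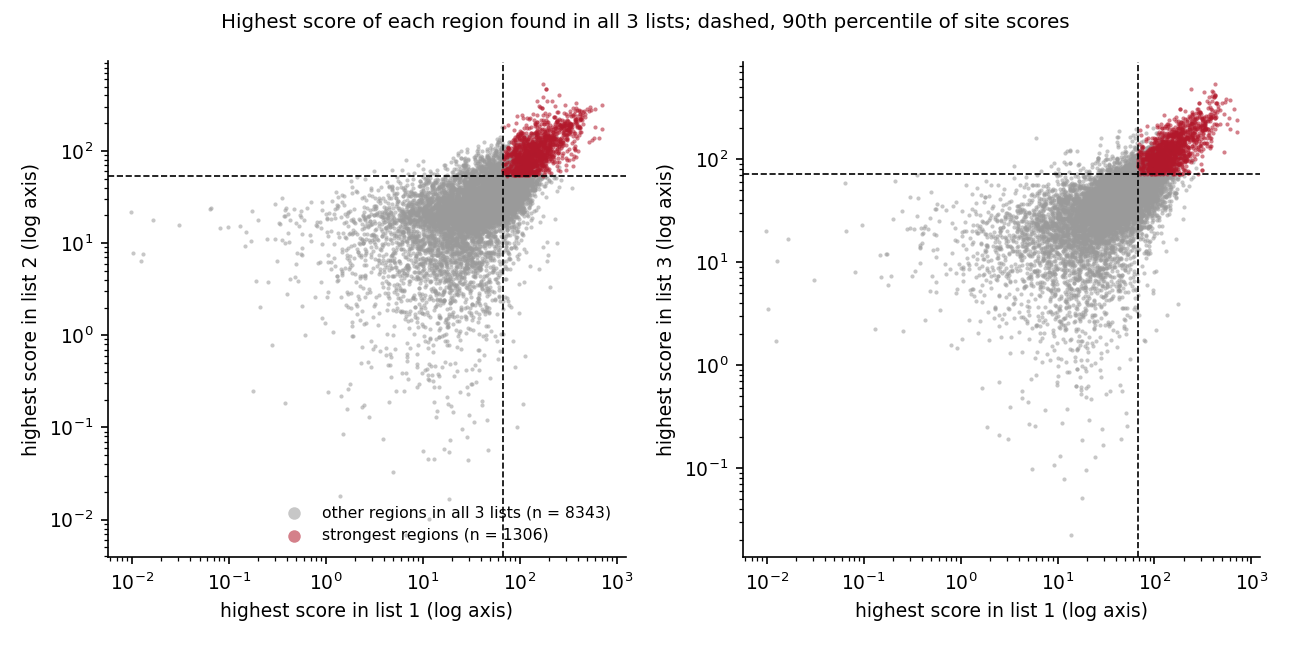
Highest score of every region found in all 3 lists, list 1 on the x axes and list 2 (left) or list 3 (right) on the y axes, all axes logarithmic, with dashed lines at the 90th percentile of site scores. The 1306 strongest regions (red) fill the corner above both lines, and the grey points in that corner fell short in the list not drawn.

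Near the threshold, differences in the deciding list were small. The regions nearest inside it were in Mctp2 (54.060 in list 2, where the threshold was 54.029), Gm30821 (71.709 in list 3, threshold 71.634) and Plcb3, on the strand opposite to the gene (54.087 in list 2). The nearest outside it were in Nupl1 (71.628 in list 3), Mro (53.946 in list 2) and Gm31431 (71.519 in list 3). In their remaining lists these 6 regions were above the thresholds, with 258 in list 2 for Gm30821 and 144 in list 1 for Gm31431.

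Being strong in 2 lists went with being strong in the list that was left out. Regions were rebuilt from 2 lists, those strong in both were taken, and their score was read in the held-out list. For list 1, 1306 of 1424 regions (91.7%, exact 95% interval 90.2 to 93.1) were strong there, against 28.3% of all regions found in both other lists. For list 2 it was 1306 of 1975 (66.1%, 64.0 to 68.2), against 14.7%, and for list 3 it was 1306 of 1688 (77.4%, 75.3 to 79.3), against 16.0%. The numerator is the same by construction, as it is the set itself, and only the number strong in the other lists differs. The 3 shares are thus not independent of each other, and they describe the set without testing it. Over the 3 lists the mean was 78.4% ± 12.8 (SD, n = 3 lists), and it was 10.9% ± 6.86 for regions found in both other lists but not strong in both. Every one of the first 3 values was above every one of the others, which ran from 6.46 to 18.8%. List 2, the smallest by sites (40014) but not by regions (24363, against 22840 in list 3), left out most: 92.8% of the regions strong in lists 1 and 3 had a site in list 2, against 99.6% found in list 1 and 98.9% in list 3.

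**Figure D2:**
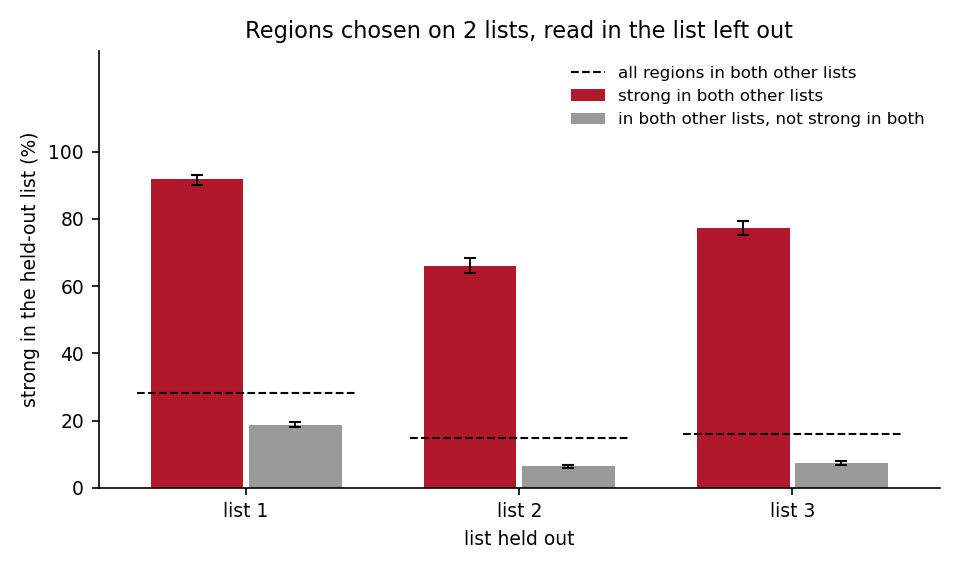
Share of regions that were strong in the list held out (y axis, %), for regions strong in both other lists (red) and for regions found in both other lists but not strong in both (grey), with exact 95% binomial intervals and dashed lines at the share over all regions in both other lists. The red bars stand at 91.7, 66.1 and 77.4%, all above their dashed lines at 28.3, 14.7 and 16.0%.

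The strongest regions were no wider than other regions found in all 3 lists, but held more sites. The median width was 8 nt in both (quartiles 4 and 12 nt against 4 and 13), and the widest strongest region spanned 39 nt. Only 33 of the 1306 were over 20 nt wide. The median number of sites was 5, 3 and 4 in lists 1 to 3, against 3, 2 and 3 in the others. Regions of a single site made up 5.21, 18.7 and 8.27% of the strongest, against 14.8, 43.0 and 17.8%. Adjacent nucleotides made up 71.5% of the steps between neighbouring sites of strongest regions and 64.2% of those in the others. The nucleotide with the highest score was the same in all 3 lists in 669 regions (51.2%, exact 95% interval 48.5 to 54.0), against 32.9% (31.9 to 34.0) of the others, and lay within 1 nt in 78.6% against 53.0%. Site number, peak position and score come from the same calls, so these values are not independent of the choice.

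Most of the strongest regions lay in protein-coding genes, and pseudogenes held a larger part of them than of other regions. The annotation gives gene spans without exons, so exons, introns and untranslated parts were not told apart. Where spans overlapped, a region was counted as tRNA, else as another small or antisense RNA, pseudogene, protein-coding or, last, long noncoding RNA. Protein-coding spans held 726 of 1306 (55.6%, exact 95% interval 52.8 to 58.3), against 67.1% (66.1 to 68.2) of the other regions found in all 3 lists. Pseudogenes held 224 (17.2%, 15.1 to 19.3), against 8.50% (7.91 to 9.12). Outside every annotated span were 262 (20.1%, 17.9 to 22.3), against 18.9% (18.1 to 19.8), and these 2 intervals overlap. The remaining kinds were 45 regions in long noncoding RNAs, 33 in tRNAs, 14 in transcribed pseudogenes, 1 in an antisense RNA span and 1 in the T cell receptor gamma locus Tcrg. The antisense RNA region lay on the minus strand where the spans of Tsix and Xist overlap. Only the order of kinds counted it for Tsix, so it does not tell which of these RNAs was bound. Read the other way, 24.0% of the pseudogene regions found in all 3 lists were among the strongest, as were 19.3% of tRNA, 14.9% of long noncoding RNA, 14.2% of outside and 11.5% of protein-coding regions. With protein-coding spans ranked first the protein-coding share was 61.3%, and 67 of the 224 pseudogene regions also lay inside a coding span.

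**Figure D3:**
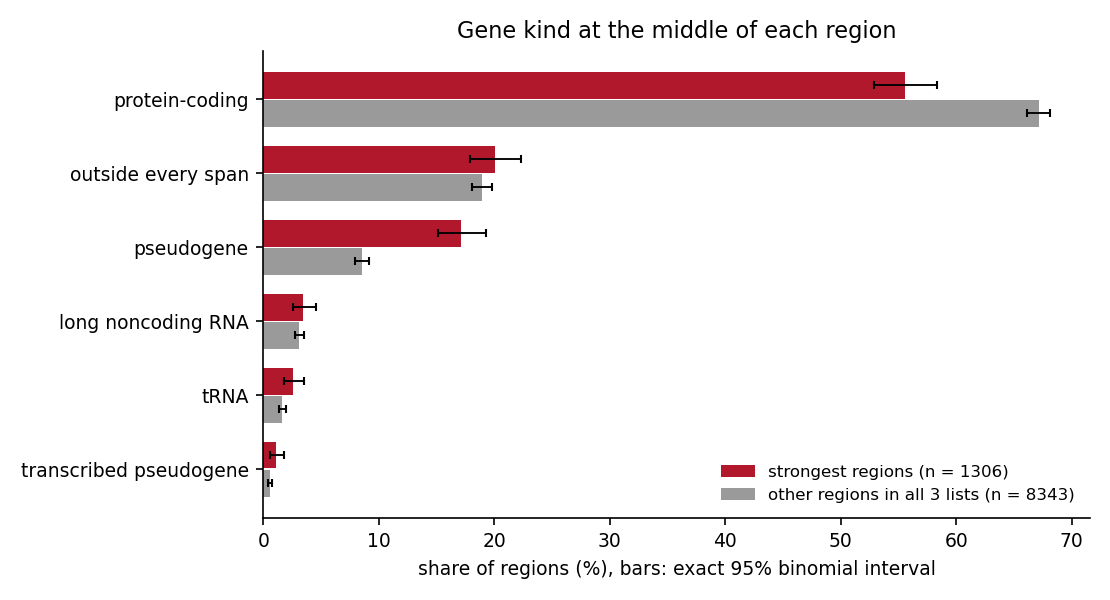
Share of regions (x axis, %) whose middle lay in each kind of gene, for the 1306 strongest regions (red) and the 8343 other regions found in all 3 lists (grey), with exact 95% binomial intervals. Protein-coding genes held 55.6 against 67.1%, and pseudogenes 17.2 against 8.50%.

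Most genes with a strongest region had a single one. Of 3761 protein-coding genes with a region in all 3 lists, 607 held a strongest region (16.1%). Among these, 529 had 1, 60 had 2 and 18 had 3 or more. Regions on either strand counted for a gene, here and in the gene lists below. Among genes of known strand, 56 held a strongest region on the strand opposite to the gene. For 244 of the 607 the strongest region was the gene's sole region in all 3 lists. The 18 genes with several were led by Krt5, Ctnnd1 and Hrnr with 5 each, then Hnrnpa1, Hnrnpa2b1, Dsg1b and Iffo2 with 4 each. Hnrnpa3, Dsg1a, Pde10a, Krt15, Eif4ebp2, Eif4b, Atp5b, Cpm, Rad23b, Dsc1 and Jup had 3 each. Most encode keratinocyte structure (Krt5, Krt15, Hrnr, Dsg1a, Dsg1b, Dsc1, Jup, Ctnnd1), RNA-binding proteins (Hnrnpa1, Hnrnpa2b1, Hnrnpa3) or translation proteins (Eif4b, Eif4ebp2). Neighbouring strongest regions of a gene were often close: over 106 pairs the median distance was 755 nt, 24.5% were within 100 nt and 53.8% within 1000 nt.

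Krt5, the type II keratin of basal keratinocytes, had 5 of its 7 regions among the strongest. Its highest, at chr15:101712458-101712460 on the minus strand, scored 389.6, 279 and 411 in lists 1 to 3. A neighbour at 101712445-101712447 scored 367, 250.1 and 408, and a further one at 101712681-101712698 scored 287, 195 and 353. The remaining pair was far lower, between 75.2 and 122 in all lists. Krt6a, a keratin of activated and companion-layer keratinocytes, carried a pair of the same spacing as Krt5: 411, 177 and 400.3 at chr15:101693914-101693915, and 422, 177 and 417 at 101693926-101693928. Transcribed pseudogene Gm5478 in the same cluster carried that pair too, with 414, 183 and 407 in the first and 424, 183 and 422 in the second. In each of the 3 genes the second region began 11 nt past the end of the first, in genome order. In list 2 the Krt6a and Gm5478 pairs (177 to 183) were below the Krt5 pair (250.1 and 279), in list 1 they were above it, and in list 3 (400.3 to 422) the ranges overlapped.

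Several strongest regions lay in keratinocyte genes with repeats or paralogs. Hrnr encodes hornerin, a repetitive protein of the cornified layer, and 5 of its 15 regions were strongest. These 5 scored 127 to 136 in list 1, 58.9 to 91.2 in list 2 and 149 to 171 in list 3, so in list 2 the lowest of them were near the threshold of 54.0. Dsg1a and Dsg1b encode desmoglein 1 paralogs on chromosome 18. The highest region of Dsg1a, at chr18:20343008-20343021, scored 306, 149 and 232, and its other 2 scored 116 to 128, 69.4 to 81.9 and 125 to 133. The 4 of Dsg1b scored 110.1 to 153 in list 1, 69.2 to 116 in list 2 and 94.3 to 151 in list 3.

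The hnRNP A/B genes, whose proteins bind nascent transcripts and act in splicing, held several strongest regions each. In Hnrnpa1 the highest, at chr15:103242646-103242663 on the plus strand, scored 421, 219.8 and 293, and the others were at 113 to 281 in list 1. In Hnrnpa3 the highest by mean rank was a single nucleotide, chr2:75663707, with 326, 166 and 204. In Hnrnpa2b1 4 of 5 regions were strongest, and the highest of these scored 167, 104 and 164. The order Hnrnpa1, Hnrnpa3, Hnrnpa2b1 of the highest regions held in each list. Of the same gene list, Rbms3, at chr9:117232334-117232335, scored 405, 275 and 457, the highest mean rank of any region in this list of genes.

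Other genes with 3 or 4 strongest regions encode proteins of translation, metabolism and adhesion, among others. Eif4b, a helper of the translation helicase, scored 88.5 to 136 in list 1, 62.7 to 175 in list 2 and 98.8 to 123 in list 3. Eif4ebp2, a repressor of translation, scored 107 to 189, 67.1 to 107 and 91.6 to 112. Atp5b, a subunit of the mitochondrial ATP synthase, scored 157 to 219, 73.4 to 78.0 and 101 to 172, so its list 2 values lay close together. Cpm, a carboxypeptidase gene, and Rad23b, a DNA repair gene, stayed between 106 and 134 in list 1. Dsc1, the gene of desmocollin 1, scored 104 to 226, 76.1 to 92.0 and 73.7 to 98.8. In list 3 its 3 regions were thus near the threshold. Iffo2, an intermediate filament family gene, scored 112 to 159.6, 57.8 to 88.5 and 82.8 to 129, and its 4 regions lay within 1767 nt.

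Some of the splicing targets for which ESRP proteins are known held strongest regions, with median scores below those of the set. Of 36 listed targets 26 had a region in all 3 lists and 7 of these (26.9%) a strongest region, beside 16.1% of all genes with a region. Of their 69 regions 13 (18.8%) were strongest, beside 11.5% of all regions under a single coding span. These 13 scored 76.2 to 187 in list 1, 59.2 to 154 in list 2 and 76.2 to 138 in list 3, and the medians of 128, 90.1 and 102 were below those of the whole set. Ctnnd1, which encodes p120-catenin and so is on the junction list too, had 5 of 13 regions among the strongest. Its highest by mean rank, at chr2:84624709-84624711, scored 177, 154 and 103, while that at 84601085-84601089 scored 187, 90.1 and 138. In list 2 the first was thus above it and in lists 1 and 3 below. A neighbour of the first at 84624687-84624690 scored 160.4, 111 and 85.3. Fgfr2, the receptor whose exon choice ESRP1 controls, had a single nucleotide at chr7:130198707 with 121, 136 and 95.7 and a second region with 131, 71.4 and 81.2. Cd44, the hyaluronan receptor with variant exons, had 1 region with 99.4, 82.0 and 78.1. Enah, an actin regulator, had 1 of 20 nt with 128, 98.0 and 109. Atp6v1c2, Fnip1 and Grhl1 held the others, between 60.0 and 161.

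Adherens junction and desmosome genes held a strongest region in the largest share of genes, among lists with at least 5 genes found in all 3 lists. In this list, 16 of 22 were found in all 3 lists and 12 of these 16 (75.0%) held a strongest region, beside 16.1% of all genes. The 12 were Ctnnd1, Dsg1b, Dsg1a, Dsc1, Jup, Perp, Evpl, Pkp1, Dsp, Pkp3, Ppl and Cdh3. Dsg1a, Dsg1b and Dsc1 encode desmosomal cadherins, Jup, Dsp, Pkp1 and Pkp3 their cytoplasmic partners, and Perp a membrane protein needed for desmosomes. Counted by regions, 28 of the list's 77 (36.4%) were strongest, beside the 11.5% of all regions under a coding span, and these scored 70.9 to 306 in list 1, 54.4 to 154 in list 2 and 73.7 to 246 in list 3. Jup, which encodes plakoglobin, was near the threshold in list 2 with 54.4, 57.3 and 67.6 in its 3 regions. Perp reached 214, 126 and 246. Keratin and cornified envelope genes followed with 9 of 19 (47.4%) and 20 of 60 regions (33.3%): Krt5, Hrnr, Krt15, Krt6a, Cdsn, Flg2, Lce1a1, Spink5 and Tchh. Krt15, a keratin of basal cells, had all 3 of its regions in the set, between 126 and 149 in list 1. The gene lists were written with earlier results of these data known and do not hold every gene of a kind. Dsg1c and Krt9, for example, were on none. The shares and their order thus depend on the choice of genes.

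**Figure D4:**
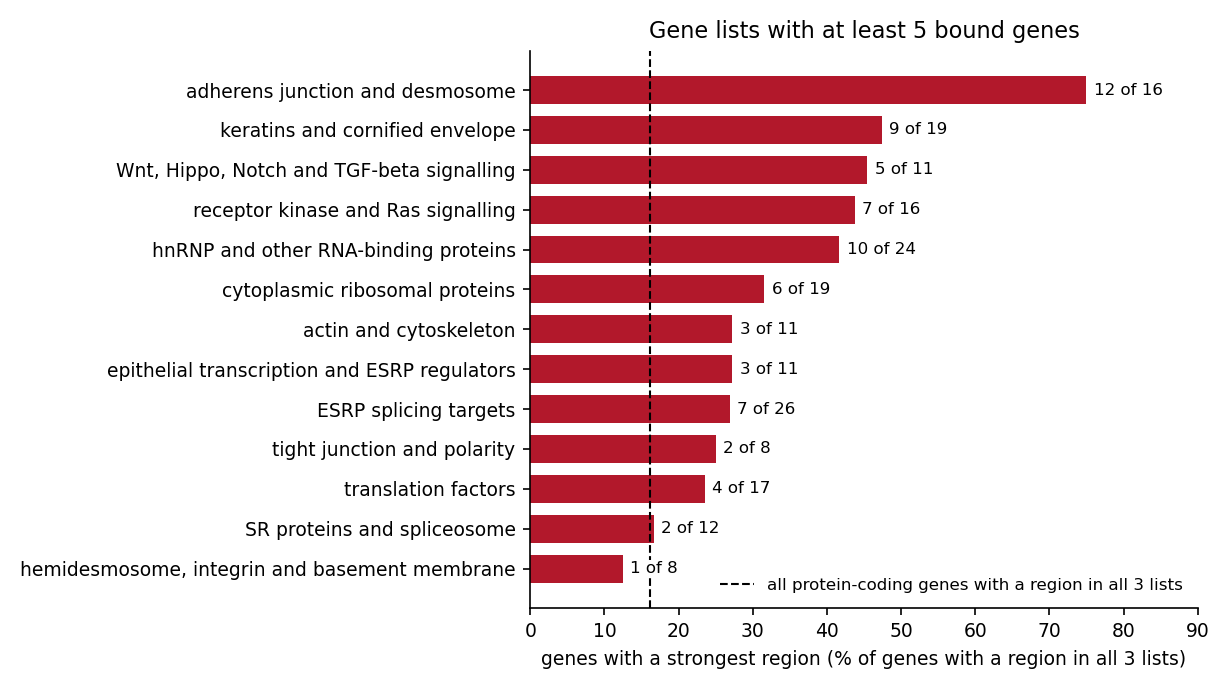
Genes with a strongest region as a share of the genes of each list with a region in all 3 lists (x axis, %), for lists with at least 5 such genes, with the counts beside the bars and a dashed line at 16.1% for all protein-coding genes. Adherens junction and desmosome genes reached 75.0% with 12 of 16, and hemidesmosome, integrin and basement membrane genes 12.5% with 1 of 8.

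In the other lists with at least 5 such genes the share with a strongest region was below that of the keratin list, and is to be read beside 16.1% of all genes. These gene shares do not allow for the number of regions per gene. RNA-binding proteins gave 10 of 24 (41.7%), receptor kinase and Ras signalling 7 of 16 (43.8%), and Wnt, Hippo, Notch and TGF-beta signalling 5 of 11 (45.5%). Wnt2b, a secreted Wnt ligand, had the fourth region of the whole set by mean rank, with 493, 288 and 355 in lists 1 to 3. Tead1, a DNA-binding factor of Hippo signalling, scored 304, 182 and 135. Its partner Yap1 scored 198, 142 and 99.3. Mapk3, a kinase downstream of Ras, scored 129, 104 and 212. Ribosomal protein genes gave 6 of 19 (31.6%), translation factors 4 of 17 (23.5%), tight junction and polarity genes 2 of 8 and SR protein and spliceosome genes 2 of 12 (16.7%). Of the 6 ribosomal protein genes, Rplp0 held its strongest region only on the strand opposite to the gene. Actin and cytoskeleton genes gave 3 of 11, with Actr2, a subunit of the actin nucleator Arp2/3, at 370.4, 222 and 323. Among ribosomal proteins Rps27a scored 185, 163 and 201 and Rpl23 scored 181, 135 and 217. The 2 splicing genes U2af1 (99.0, 60.1 and 87.4) and Prpf8 (70.8, 57.4 and 81.0) were near the threshold. Eif5a, a translation factor, scored 243, 207 and 273, and Pard3, a polarity protein, scored 202, 254 and 115. Among hemidesmosome genes Lama3, a laminin chain, was the sole one with a member, which scored 252, 194 and 274. Its 9 site positions were repeated in pseudogenes Gm15727 (407, 188 and 220.0) and Gm13981 (431, 160.5 and 221) and in 3 further members. Epithelial regulators gave 3 of 11: Tfap2c (125, 118 and 129.6), Prdm1 with 2 regions, and Trp63, the p63 factor of stratified epithelia (75.0, 60.2 and 111). Counted by regions, some of these lists were below the 11.5% of all regions under a coding span. They were the actin (3 of 28, 10.7%), tight junction (2 of 22, 9.09%), SR protein (2 of 20) and hemidesmosome lists (1 of 32, 3.1%). The remaining lists of this paragraph had region shares of 18.4 to 28.4%.

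Among markers of other cell types 1 gene held a strongest region. Of 10 melanocyte, 15 fibroblast, 12 immune, 13 endothelial and muscle and 8 erythroid markers, 2, 1, 1, 0 and 0 had a region in all 3 lists. The sole strongest region among them was in Csf1r, the macrophage receptor, with 220.1, 100.3 and 131. Of all 21900 protein-coding genes 3761 had a region in all 3 lists and 607 a strongest one. A single gene with a strongest region in these short lists thus does not set them apart from all genes. Keratin and cornified envelope genes had a region in all 3 lists in 19 of 36 cases, more than any list of another cell type, though site lists give no expression levels.

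Genes with many regions more often held a strongest one, but each region is a further chance to hold one. Over all regions under a single coding span 11.5% were strongest. The shares below were not set against what that share alone would give, so they are not a trait of the genes. Of 110 genes with 5 or more regions in all 3 lists 67 (60.9%, exact 95% interval 51.1 to 70.1) did, against 244 of 2367 genes (10.3%, 9.11 to 11.6) with 1 region. The other 43 of the 110 had none. Ahnak and Col7a1 led them with 11 regions each, then Skint6 with 9 and Plec with 8. Ahnak encodes a giant scaffold protein, Col7a1 the anchoring fibril collagen, and Plec the cytoskeletal linker plectin.

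Within genes the strongest regions lay where other regions lay. For 469 regions in sense orientation to a coding span of at least 4000 nt, 21.1% were in the last 1000 nt of the span (exact 95% interval 17.5 to 25.1), against 19.7% (18.5 to 21.0) of 3879 others. The first 1000 nt held 9.17 and 9.64%. The median position was 77.6 and 76.4% of the way from the start to the end of the span. These intervals overlap, so strongest and other regions could not be told apart by position at this number.

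A part of the strongest regions lay on the strand opposite to the gene. Among regions under a single coding span of known strand, 57 of 552 (10.3%, exact 95% interval 7.92 to 13.2) were antisense. Of the others it was 268 of 4212 (6.36%, 5.64 to 7.14). Gene strand was unknown for a further 146 strongest and 1085 other regions. Regions are not replicates, and this difference was not tested. The highest by mean rank were in Smpx, a muscle protein gene (426, 269.6 and 355 in lists 1 to 3), Sema3e, a guidance ligand gene (417, 252 and 422), and Atrn, the gene of attractin (478, 252 and 304). All 3 were among the first 15 of the set by mean rank. Of the 56 genes with an antisense member 16 also had a sense region in all 3 lists, while of 426 genes with a sense member 270 had a further sense region. The 2 antisense regions of Pde10a lay far from its sense region, the 3 being spread over 236563 nt. The highest score in the lists, at which the scale ended, was reached by 1 member, antisense to Pwwp3b, with 708, 171 and 243. Other regions at that maximum, in Krt76, Krt77, Mtmr3 and Peak1 and 1 outside genes, missed the set because at least 1 list held no site there.

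Strongest regions in pseudogenes often repeated the site arrangement of another region to the nucleotide. For 507 strongest regions of at least 10 nt and 5 site positions, the distances of all positions from the 5′ end of the region were compared. In 183 of them, in 64 sets, every distance was shared with another strongest region, and 15 sets had 4 or more regions. Of pseudogene regions 55.1% (59 of 107) were in such a set, against 26.3% (73 of 278) of protein-coding ones and 40.8% (42 of 103) of those outside genes. Layouts were compared among strongest regions only. Whether other regions found in all 3 lists repeat layouts less often is thus not known. In the set of Hnrnpa1 sites lay 0, 5, 6, 7 and 17 nt from the 5′ end in Hnrnpa1 and in Gm5643, Gm8789, Gm7729, Gm10052 and Hnrnpa1l2-ps. Their scores were also alike: 394 to 427 in list 1, 205 to 226 in list 2 and 254 to 293 in list 3. In the set of Gapdh, the glycolytic enzyme, the gene scored 89.1, 90.3 and 95.7. Its 5 companions Gm12671, Gm12033, Gm13394, Gm12537 and Gm14760 scored 85.4 to 97.2, 89.6 to 100.4 and 94.96 to 104. Rpl27a, a ribosomal protein gene (132, 84.5 and 136), shared its layout with Rpl27a-ps4, Gm7536 and Gm8451. Among genes described above, Timm23 shared its layout with Gm18098, Cpm with Gm15032, U2af1 with Gm10232, and Dsg1a with its paralogs Dsg1b and Dsg1c. The names of the Gm models do not tell their parent gene, and the placing of reads that match several copies is not given. Whether such reads set these scores was not tested. The pseudogene Gm6296, inside the span of Cast, scored 384, 214 and 277, and Gm5928, inside that of Heatr1, scored 384, 221 and 258. Gm8652 (342, 239.8 and 267) shared its 10 positions with Gm29241 and Gm5461. Identical scores in all 3 lists were found for 1 pair of members, antisense Rplp0 and Gm14165, both with 170.4, 289 and 175.

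**Figure D5:**
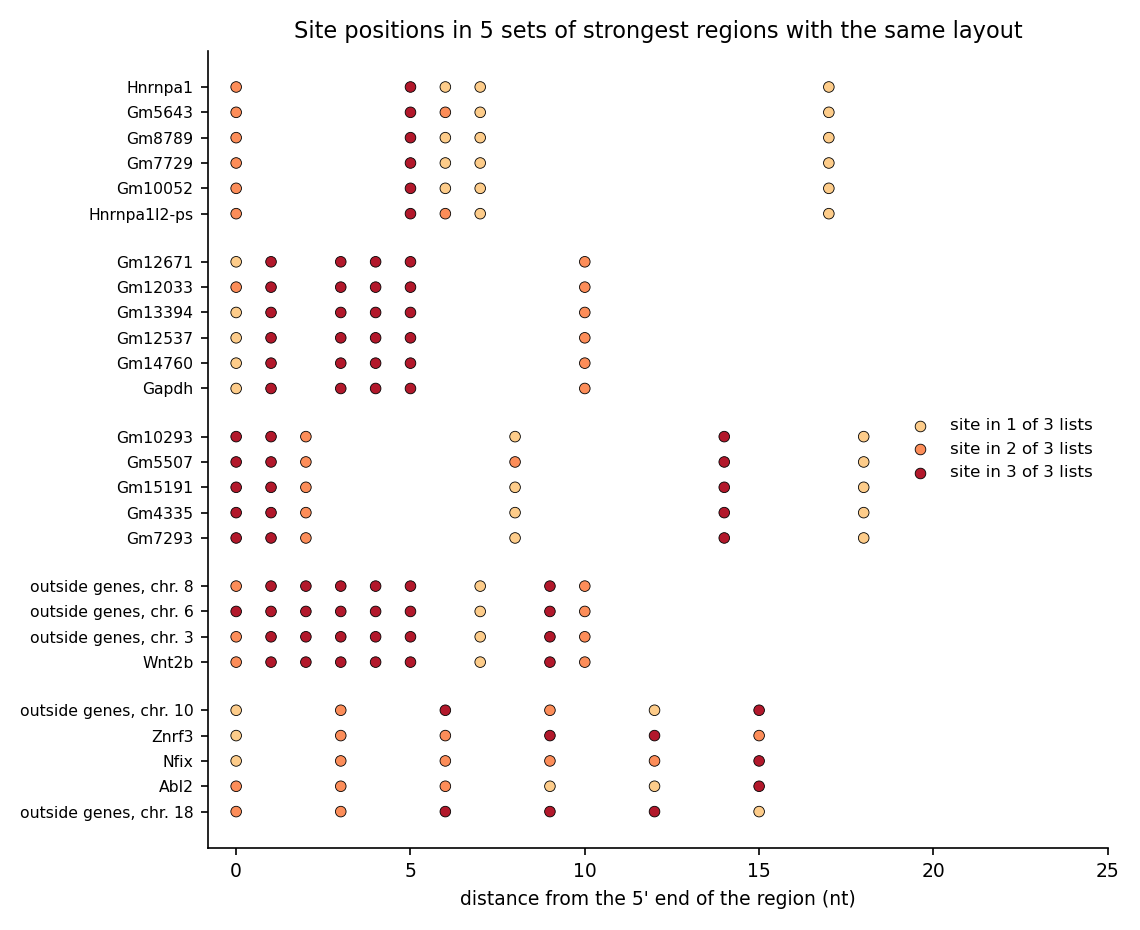
Site positions as distance in nt from the 5′ end of the region (x axis), 1 row per strongest region, in 5 sets with the same layout, with colour for the number of lists that held the site. Within the sets of Hnrnpa1, Gapdh, Gm10293 and Wnt2b the rows also nearly repeat in colour, while in the set at 3-nt steps the colours vary between rows.

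Some regions had their sites at steps of 3 nt. Among strongest regions with at least 4 positions, all gaps were multiples of 3 nt in 15 of 950 (1.58%, exact 95% interval 0.886 to 2.59), against 54 of 5668 others (0.953%, 0.716 to 1.24), and these intervals overlap. No region of either kind had all gaps at multiples of 4 or 5 nt, and 4 of the 950 had them at multiples of 2 nt. Tead1, at chr7:112804196-112804217, held 8 positions in 22 nt. Ube2k, a ubiquitin-conjugating enzyme gene, held 5 positions in 13 nt and scored 304, 198 and 144. Ctsb, the gene of cathepsin B, scored 238, 98.6 and 481, close in list 3 to the set's highest of 540.0. Znrf3, Nfix and Abl2 shared a layout of 6 positions, and Mpp7, Xpo7 and Pepd one of 7. No sequence was read at these regions.

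Cysteine tRNA genes made up most of the 33 tRNA members. Of 57 annotated cysteine tRNA genes with anticodon GCA, 22 held a strongest region, and 17 of the 22 were on chromosome 6. Counted by regions, 22 of the 41 found in all 3 lists in cysteine tRNA genes were strongest, beside 33 of 171 over all tRNA genes. The scores below are those of the 22 strongest. Their scores were 76.4 to 255 in list 1 (median 181), 79.7 to 176 in list 2 (median 143) and 79.9 to 220 in list 3 (median 177). Counted from the 5′ end of the gene on the strand of the sites, the peak lay at nucleotide 1 in 10 of them, at 2 in 10, at 3 in 1 and at 35 in 1. The first by mean rank was n-TCgca5, at chr6:48341587-48341591, with 5 sites in each list and scores of 231, 176 and 214, while n-TCgca9 was above it in list 1 (255) and n-TCgca40 in list 3 (220.4). Threonine tRNA with anticodon TGT gave 5 regions in 3 genes, with peaks at nucleotides 16 and 35 and, at 35, scores of 120.1 to 133, 129.6 to 154 and 179 to 202. Glycine tRNA with anticodon TCC gave 3, all with the peak at nucleotide 9 and 21 nt wide. Proline, aspartate and a further glycine tRNA gave 1 each. Peak positions thus repeated across most genes of a kind. The division of reads between such genes is not given.

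Among long noncoding RNAs, the nuclear transcript Malat1 held 2 neighbouring members. The first, at chr19:5800978-5800980, scored 312, 213 and 252 in lists 1 to 3, and the second, the single nucleotide 5800955, scored 268, 175 and 249. The highest was in Gm31025, with 370.3, 275 and 277. H19, an imprinted transcript of growing tissue, had 2 (151, 96.2 and 143; 102, 82.5 and 81.3), and 3 lay where Gm14170 and Norad overlap. Of the 45 members, 16 were sense and 11 were antisense to the noncoding gene, for 9 the strand of the gene was not known, and 9 lay under several spans.

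The 3 highest regions by mean rank lay outside annotated genes. They were at chr8:42957946-42957956 on the minus strand (594, 282 and 375), chr6:60885295-60885305 on the plus strand (528, 301 and 359) and chr3:128930771-128930781 on the plus strand (541, 275 and 387). The span nearest to the first was Triml1 at 171855 nt, and that nearest to the third was pseudogene Gm9387 at 22519 nt. All 3 were 11 nt wide and had the same 9 site positions as the region in Wnt2b, which ranked next. The following outside regions by rank were at chr1:112644336-112644337 (418, 252 and 540.0) and chr13:60263073-60263080 (446, 264 and 354). Of the first 15 regions by mean rank 8 were outside genes, and 3 of these 8 were the regions with the layout of Wnt2b. The share over the whole set was 20.1%, and with the threshold at the 95th percentile it was lower, at 16.0%. The 262 outside regions were like other outside regions in their surroundings. The median distance to the nearest span was 12666.5 nt, against 13853.5 nt for the 1578 others, and 30.9% (exact 95% interval 25.4 to 36.9) lay within 5000 nt of a span, against 29.9% (27.7 to 32.2). Past the 3′ end of a gene on the same strand and within 5000 nt lay 4.20% (2.11 to 7.39), against 6.97% (5.76 to 8.34).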

How the data were processed

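The sources were 3 site lists that the authors deposited, 1 per 2 biological replicates, with 1 score per single-nucleotide site. Calling used input, per the file headers. The scale of the deposited score is not stated. Per the submitters' processing notes, cutadapt 1.16, HISAT2 2.1.0 and HOMER were used with GRCm38 (mm10). Their settings, duplicate removal and the handling of reads with several alignments are not given in these sources, and each can change scores in repeated genes. The lists hold no read counts, so depth is unknown.

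Regions were built as stated above, with pandas 2.3.3 and NumPy 2.4.6 in Python 3.11.15, and the code was tested on simulated lists. A region was placed by its middle in the gene spans of a RefSeq table of GRCm38.p6 (49997 genes, no exons). Gene strand came from the promoter table of that build, which holds no gene of chromosome 18, and was known for 17492 coding genes. Intervals are exact binomial (Clopper-Pearson, 95%, SciPy 1.17.1) and cover counting error only. A gene counted with regions under a single coding span. Named genes were those with 3 or more strongest regions, the first 15 regions by mean rank, members of the ESRP target and regulator lists, up to 4 genes of each other of 18 lists, the 5 strongest regions of each other gene kind, and the 3 regions nearest to each side of the threshold; not every one is described. Other names were chosen after their values were seen. The members and lists were chosen with earlier results of these data known. Alternatives covered the percentile, the joining and merging distances, each list left out, the order of gene kinds and repeated regions.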

Additional observations from a re-analysis of the deposited data

How the results depend on the processing

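Over 48 recomputed values 38 stayed within the error of the reported value or, for the count, within 1.5 times, and 10 did not. At the 95th percentile the set fell to 592 regions, with 51.5% in protein-coding spans and 16.0% outside genes. At the 80th it had 2727 regions, with 58.5% in protein-coding spans. Leaving out 1 list gave 1424 to 1975 regions, 54.7 to 60.0% in protein-coding spans and 17.6 to 22.9% outside. The highest count and coding share and the lowest outside share came without list 2, and the highest outside share came without list 3. With protein-coding spans first the coding share was 61.3%. The share strong in the held-out list stayed between 75.9 and 79.3%. Joining within 5 or 20 nt, merging by overlap or within 50 nt and percentiles over region maxima gave 1256 to 1306 regions. Counting regions of the same site layout as 1, chosen after seeing the data, left 1187, with 57.5% in protein-coding spans. No paired analysis was possible because each list pools 2 replicates and no test was made. Unknown depth, pooled replicates and reads shared between gene copies limit these values.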

Other observations

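In 2 sets of pseudogenes of like length, chosen after their values were seen, the place of the strongest region differed between the sets, which lay on opposite strands. In the companions of Gapdh above, Gm12671, Gm12033, Gm13394, Gm12537 and Gm14760, all with sites on the minus strand and 1199 to 1206 nt long, its first site lay 43 nt into the span. In Gm10293, Gm5507, Gm4335 and Gm7293, with sites on the plus strand and 1201 to 1227 nt long, it began 19 nt from that end, and in Gm15191 it began 15 nt from it. These 5 had 6 site positions at 0, 1, 2, 8, 14 and 18 nt, while the minus-strand copies had them at 0, 1, 3, 4, 5 and 10 nt. Gapdh-ps15, on the plus strand of chromosome Y, had the first 5 of the plus-strand positions, but began 45 nt into its span of 1233 nt, close to the 43 nt of the minus-strand copies. Gapdh-ps15 scored 92.7, 86.9 and 90.9. Gm14130, Gm4575 and Gm2574 had the same 5 positions, also on the plus strand, but began 19 nt into their spans. Of the 15 sets of 4 or more regions with the same layout, 10 held both strands, 3 the plus strand and 2 the minus strand.

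The stretch of chromosome 6 with most cysteine tRNA members also held strongest regions on the minus strand within the noncoding spans Gm16630 and Gm30362. The first of these by mean rank scored 81.8, 89.5 and 119 in lists 1 to 3, was 4 nt wide and had 4 sites in each list. The tRNA members of that stretch lay on the plus strand, as n-TCgca5 did.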
